A study of Homo sapiens with 18 samples.

Results

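The genes described here are those of cholesterol and fatty acid synthesis, in MSTO-211H cells, a human malignant mesothelioma line. They were chosen as a list of 32 genes that encode enzymes of both pathways, the SREBP regulators and a pair of sterol transport proteins. A gene was measured if a probe set of the HGU133A array carried it as its only symbol in the platform annotation, which held for 29 of the 32, with 59 of the array's 22283 probe sets, out of 11963 genes with such a probe set. FDFT1, CYP51A1 and FADS1 had none and were left out. The 18 arrays covered 8 groups. Treatments were 760 µM piroxicam (P), a non-steroidal anti-inflammatory drug, 4.5 µg/mL cisplatin (C), a platinum drug that damages DNA, and both together (P/C), each for 8 h or 24 h. The controls of each time received nothing (untreated), and no sample with the drug solvent alone was described. There were 2 arrays for each group at 8 h, 2 for untreated and P/C cells at 24 h, and 3 for P and C cells at 24 h. The comparisons asked which genes each drug changed before and after apoptosis had set in.

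Cholesterol is built from acetyl-CoA through mevalonate, the isoprenoid farnesyl diphosphate and the sterol ring. Fatty acids are built from the same acetyl-CoA, and then lengthened and desaturated. The genes of both pathways share the SREBP transcription factors, encoded by SREBF1 and SREBF2. SCAP escorts these factors from the endoplasmic reticulum to the Golgi for activation, and INSIG proteins hold SCAP back when sterols are plentiful. INSIG1 is itself a target of the SREBPs, so its mRNA is a common readout of their activity. Dividing tumour cells draw on both pathways for membranes.

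Values are the deposited log2 signals of each probe set. A gene with several probe sets, as 19 of the 29 had, is given by the probe set with the highest mean. Array medians lay between 2.72 and 2.83, and 6 of the genes had a mean below 3.5, near that level. A gene was called changed at a Benjamini-Hochberg adjusted p of at most 0.05 in limma's moderated test and a log2 fold change of 1 or more in size. The test was fitted on the 3057 probe sets that passed a filter with the thresholds of the study's methods, in which 10 of the 29 genes took part, and again on all 22215 probe sets other than controls, in which all 29 did. The filter was applied again to the deposited values and kept fewer probe sets than it had in the study. The first is named the filtered fit and the second the complete fit.

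The cell line's markers were checked first. Of 14 mesothelial and mesothelioma markers, 4 had a mean signal of at least 100 and 9 lay near the array median, among them mesothelin (MSLN, 1.99 to 2.57 over the arrays) and the keratin KRT5 (1.74 to 2.26), whereas vimentin (VIM) was between 11.7 and 12.1. None of 5 leukocyte and erythroid markers and none of 6 stromal and endothelial markers reached that signal as a mean. COL3A1, a collagen counted as a stromal marker, did vary, with 5.01 and 7.69 on the untreated arrays at 24 h and 3.44 to 4.44 on the P arrays. The summed signal of the stromal list at 24 h was accordingly 60.4 to 234 in untreated cells, 42.2 to 50.8 with P, 68.4 to 148 with C and 51.5 to 207 with P/C, and its part in the results was not tested.

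A pair of arrays at 24 h went against their labels. The array labelled C replicate 1 had a median shift of 0.15 over 6 p53 targets from untreated cells. The other C arrays had 1.70 and 1.87. Of 17 targets listed, 12 were measured, and those with a mean signal of at least 100 over all arrays were used. Shifts of the other measured targets are not given. Treated arrays thus took part in choosing the 6 targets by which they were judged. XPC was among these 6 with a median of 6.30, under the log2 limit of 6.64. The array labelled P/C replicate 1 shifted by 2.07 in those targets, but by 0.45 over 58 probe sets of other genes that were called with piroxicam at 8 h, a signed mean log2 difference that was 1.30 on P/C replicate 3 and 1.49 to 1.52 on the P arrays. The C arrays had 0.34 to 0.39. Where leaving out either array changed a call with C or P/C at 24 h, both are given.

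After 24 h of piroxicam alone, genes of cholesterol synthesis and the regulator INSIG1 were lower. In the filtered fit 5 of the 10 genes tested fell and none rose, where 11.4% of all probe sets tested fell. They were IDI1, FDPS, MSMO1, EBP and SCD. In the complete fit the same 5 genes fell together with HMGCS1 and INSIG1, so 7 of 29 were called lower, against 2.67% of all probe sets, and none was called higher. The log2 fold change was negative in 25 of the 29 genes, with a median of -0.60, while the median over all probe sets was 0.03, or -0.11 over the 6037 probe sets with a mean signal of at least 25. All 3 P arrays lay below both untreated arrays in 24 of 29 genes, against 17.3% of all probe sets and 35.7% of those with a mean signal of at least 25. The scale moved with the drug. The median of the 3057 filtered probe sets with P was -0.22, which quantile normalization brought to -0.06 and centring of the arrays to -0.01. IDI1 and SCD stayed called lower on either scale, while FDPS (-0.89 and -0.82), MSMO1 (-0.86 and -0.82) and EBP (-0.97 and -0.94) no longer reached 1. The complete fit called HMGCS1, IDI1, INSIG1 and SCD on both scales. The shares of all probe sets called on these scales are not given. Still 25 of 29 values were negative. Without replicate 2 of the untreated arrays, too, the filtered fit called only IDI1 and SCD, where 8.18% of probe sets were called in either direction, and the complete fit only HMGCS1 and INSIG1, where 0.581% were. As whole cultures were measured, a fall can come from less RNA per cell or from fewer cells that hold it, which cannot be told apart.

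**Figure D1:**
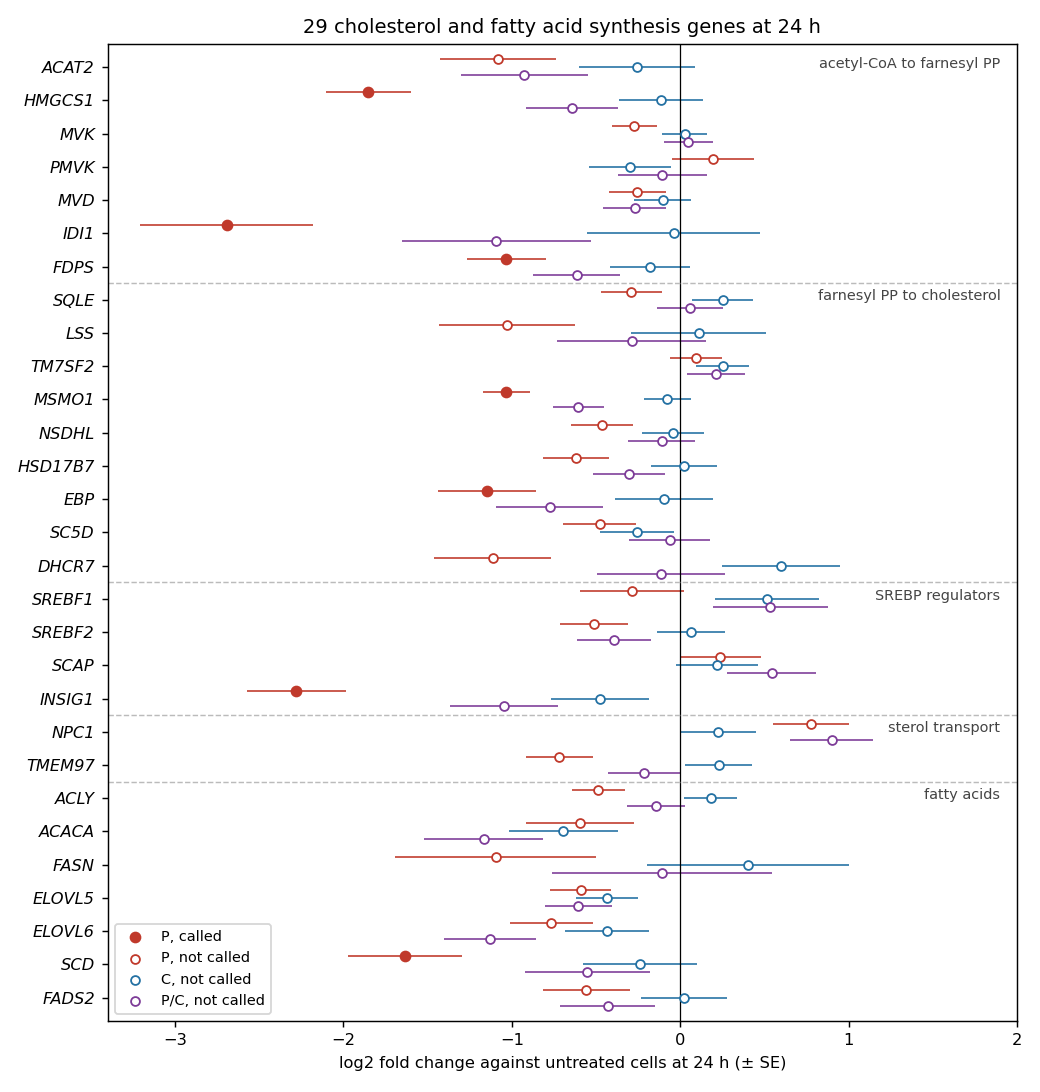
Log2 fold change against untreated cells at 24 h (x axis) for the 29 genes (y axis), grouped by step, with P in red, C in blue and P/C in purple. Bars are standard errors of the complete fit, and filled points were called in either fit. The 7 filled points all belong to P, lie at -1.03 or lower, and include HMGCS1, IDI1, FDPS, MSMO1, EBP, INSIG1 and SCD.

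Among the early steps from acetyl-CoA to farnesyl diphosphate, 3 of 7 genes fell with P. HMGCS1, which makes HMG-CoA, gave 5.52 and 5.64 on the untreated arrays at 24 h and 3.79, 3.26 and 4.13 on the P arrays. The groups did not overlap, and the log2 fold change was -1.85 ± 0.25 (SE; limma, complete fit, adjusted p = 0.00219). IDI1, which converts isopentenyl diphosphate to its isomer, gave 8.21 and 8.98 in untreated cells and 6.17, 5.51 and 6.03 with P. This was the largest fall among the 29 genes, -2.69 ± 0.49 (limma, filtered fit, adjusted p = 0.00151), or 6.46-fold. Both IDI1 probe sets carry the suffix _x_at, which marks probes that can also match other transcripts.

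FDPS, which joins these units into farnesyl diphosphate, gave 9.24 and 9.47 in untreated cells and 8.23, 8.64 and 8.09 with P, a fall of 1.03 ± 0.26 on the log2 scale (limma, filtered fit, adjusted p = 0.00837). ACAT2, the cytosolic thiolase that starts the pathway, had a change of -1.08 ± 0.34 and was not called (limma, complete fit, adjusted p = 0.0900). The kinases MVK and PMVK and the decarboxylase MVD, all near the array medians, had -0.27, 0.19 and -0.26. The largest fall of the list was thus among these early steps.

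Of the 9 measured genes between farnesyl diphosphate and cholesterol, 2 fell with P. MSMO1, a C4-methyl sterol oxidase, gave 8.18 and 8.39 in untreated cells and 7.28, 7.13 and 7.35 with P, a change of -1.03 ± 0.19 (limma, filtered fit, adjusted p = 0.00142). EBP, the sterol isomerase, gave 6.67 and 7.47 in untreated cells and 5.56, 6.01 and 6.18 with P, a change of -1.15 ± 0.30 (limma, filtered fit, adjusted p = 0.0109). In both genes the groups were separate, although the untreated arrays of EBP lay apart from each other. The last enzyme, DHCR7, had -1.11 ± 0.35 (limma, complete fit, adjusted p = 0.0834) and lanosterol synthase, LSS, had -1.03 ± 0.40 (adjusted p = 0.176). Neither was called with all arrays, but DHCR7 was called lower in the complete fit with array weights. Whether ACAT2, DHCR7 and LSS were called with P also depended on the arrays that stood apart, which enter the shared spread. HSD17B7 and NSDHL, which act with MSMO1 in removing methyl groups, had -0.62 and -0.47, SC5D had -0.48 and the sterol reductase TM7SF2, near the array medians, had 0.09. SQLE, the squalene epoxidase often named as rate-limiting, gave 7.42 and 7.57 in untreated cells and 7.27, 6.92 and 7.42 with P, with a change of -0.29 ± 0.22 (limma, filtered fit, adjusted p = 0.323). Its P and untreated arrays did not overlap, as replicate 3 of P stood just under the lower untreated array.

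Of the 4 regulators, INSIG1 fell. It gave 7.04 and 6.90 in untreated cells at 24 h and 4.85, 4.49 and 4.74 with P, a change of -2.28 ± 0.29, or 4.85-fold (limma, complete fit, adjusted p = 0.00189). The P arrays lay close together and far below the untreated ones. SREBF2, the factor that mainly serves cholesterol synthesis, had -0.51 ± 0.20. SREBF1, which mainly serves fatty acid synthesis and was near the array medians, had -0.29 ± 0.31, and SCAP had 0.24 ± 0.24. None of them was called.

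The sterol transport genes lay on opposite sides. NPC1, which exports cholesterol from lysosomes, gave 7.17 and 7.23 in untreated cells and 8.10, 8.04 and 7.79 with P. The change of 0.78 had an adjusted p of 0.0303 (limma, filtered fit) but was under the limit of 1 for a call. TMEM97, which binds NPC1, gave 7.41 and 7.97 in untreated cells and 6.99, 6.82 and 7.10 with P, and its -0.72 had an adjusted p of 0.0297 and was also under the limit.

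Among 7 measured fatty acid genes, SCD fell. This desaturase, which makes oleate, gave 9.77 and 9.27 in untreated cells and 8.20, 7.88 and 7.58 with P, a change of -1.64 ± 0.34, or 3.11-fold (limma, filtered fit, adjusted p = 0.00321). The other 6 had negative values that were not called, and the P arrays lay below the untreated ones in all 7. FASN, the fatty acid synthase, gave 7.49 and 6.88 in untreated cells and 6.20, 5.80 and 6.26 with P, with -1.10 ± 0.57 (limma, filtered fit, adjusted p = 0.158). ACLY, which supplies cytosolic acetyl-CoA, had -0.49, the carboxylase ACACA had -0.60, the elongases ELOVL5 and ELOVL6 had -0.59 and -0.77, and the desaturase FADS2, near the array medians, had -0.56.

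The 19 genes with several probe sets allowed a second look. Of their 30 further probe sets, 28 had the direction of the main one with P at 24 h, and both exceptions were of ELOVL5. A further probe set was also called for INSIG1 (-2.65), IDI1 (-2.49), EBP (-1.89) and HMGCS1 (-1.55) in the complete fit. The 3 further probe sets of SCD had -1.41, -1.21 and -0.79 and were not called.

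The promoters of the genes that fell, and that of SREBF2, are shown with short motifs marked, and binding was not measured. RefSeq gave the 250 bases upstream of the start for 26 of the 29 genes, on build GRCh38.p14, all except FASN, SQLE and ACAT2. The box CCAAT, bound by NF-Y, a partner of the SREBPs, was searched on both strands and lay in 18 of the 26 (69.2%), against 35.6% of the 9562 promoters of genes on the array and 33% of all 27305. It lay in 6 of the 7 genes that fell with P, all except IDI1, and in 12 of the 19 others. The Sp1 box GGGCGG lay in 23 of 26 (88.5%, against 60.6% and 42.3%) and the E-box CACGTG in 4 (15.4%, against 8.35% and 6.49%). The sterol element, searched as TCACNCCAC, lay in SREBF2 only (3.85%, against 0.816% and 0.875%). Only these exact letters were searched, so sterol elements of other spelling were neither counted nor marked. In the sequences, read 5′ to 3′ towards the gene, capitals mark CCAAT, its reverse complement ATTGG and the sterol element. They are INSIG1 at chr7:155297628-155297877 on the plus strand, HMGCS1 at chr5:43313413-43313662 on the minus strand, FDPS at chr1:155308616-155308865 on the plus strand, MSMO1 at chr4:165327419-165327668 on the plus strand, EBP at chrX:48521558-48521807 on the plus strand, SCD at chr10:100346983-100347232 on the plus strand, IDI1 at chr10:1056705-1056954 on the minus strand and SREBF2 at chr22:41832855-41833104 on the plus strand.
INSIG1: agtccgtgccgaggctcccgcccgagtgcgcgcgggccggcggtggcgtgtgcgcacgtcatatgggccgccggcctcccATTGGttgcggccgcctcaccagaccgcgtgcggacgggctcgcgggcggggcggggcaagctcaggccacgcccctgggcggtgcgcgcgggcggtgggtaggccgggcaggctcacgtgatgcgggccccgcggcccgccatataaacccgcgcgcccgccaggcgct
HMGCS1: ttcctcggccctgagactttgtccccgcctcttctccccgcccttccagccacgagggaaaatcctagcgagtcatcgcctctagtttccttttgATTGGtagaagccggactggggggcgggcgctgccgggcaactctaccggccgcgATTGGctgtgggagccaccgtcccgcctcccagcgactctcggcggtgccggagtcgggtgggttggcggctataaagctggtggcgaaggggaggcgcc
FDPS: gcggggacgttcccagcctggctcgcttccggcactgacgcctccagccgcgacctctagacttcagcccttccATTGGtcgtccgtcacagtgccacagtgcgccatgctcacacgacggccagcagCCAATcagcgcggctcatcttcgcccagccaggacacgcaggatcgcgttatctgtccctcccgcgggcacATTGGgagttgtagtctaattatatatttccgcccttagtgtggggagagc
MSMO1: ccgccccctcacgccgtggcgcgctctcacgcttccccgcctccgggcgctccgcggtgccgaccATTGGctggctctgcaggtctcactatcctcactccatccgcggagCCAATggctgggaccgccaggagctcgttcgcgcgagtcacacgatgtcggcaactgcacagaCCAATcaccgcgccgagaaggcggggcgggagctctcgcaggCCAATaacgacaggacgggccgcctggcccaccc
EBP: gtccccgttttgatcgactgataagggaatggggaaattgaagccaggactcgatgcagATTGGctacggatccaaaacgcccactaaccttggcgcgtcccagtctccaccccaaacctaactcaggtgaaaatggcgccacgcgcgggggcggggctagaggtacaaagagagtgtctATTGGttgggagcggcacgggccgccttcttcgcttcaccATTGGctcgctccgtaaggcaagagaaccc
SCD: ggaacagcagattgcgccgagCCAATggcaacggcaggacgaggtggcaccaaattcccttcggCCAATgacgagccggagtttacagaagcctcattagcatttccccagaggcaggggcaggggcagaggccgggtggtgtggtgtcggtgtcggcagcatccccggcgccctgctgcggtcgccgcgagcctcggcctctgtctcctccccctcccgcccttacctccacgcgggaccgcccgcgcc
IDI1: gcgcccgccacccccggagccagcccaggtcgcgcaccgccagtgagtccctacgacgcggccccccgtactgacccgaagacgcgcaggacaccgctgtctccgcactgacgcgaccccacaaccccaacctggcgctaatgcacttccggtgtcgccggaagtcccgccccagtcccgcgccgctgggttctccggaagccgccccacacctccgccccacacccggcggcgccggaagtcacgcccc
SREBF2: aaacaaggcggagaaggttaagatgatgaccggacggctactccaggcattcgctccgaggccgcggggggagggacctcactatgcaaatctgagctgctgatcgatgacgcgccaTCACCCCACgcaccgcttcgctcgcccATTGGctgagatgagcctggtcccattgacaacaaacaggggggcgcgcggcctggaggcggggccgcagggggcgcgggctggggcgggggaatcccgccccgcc
MSMO1 held 4 CCAAT boxes and EBP and FDPS 3 each, whereas IDI1, with the largest fall, held none. These matches describe the letters of the window and not binding.

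**Figure D2:**
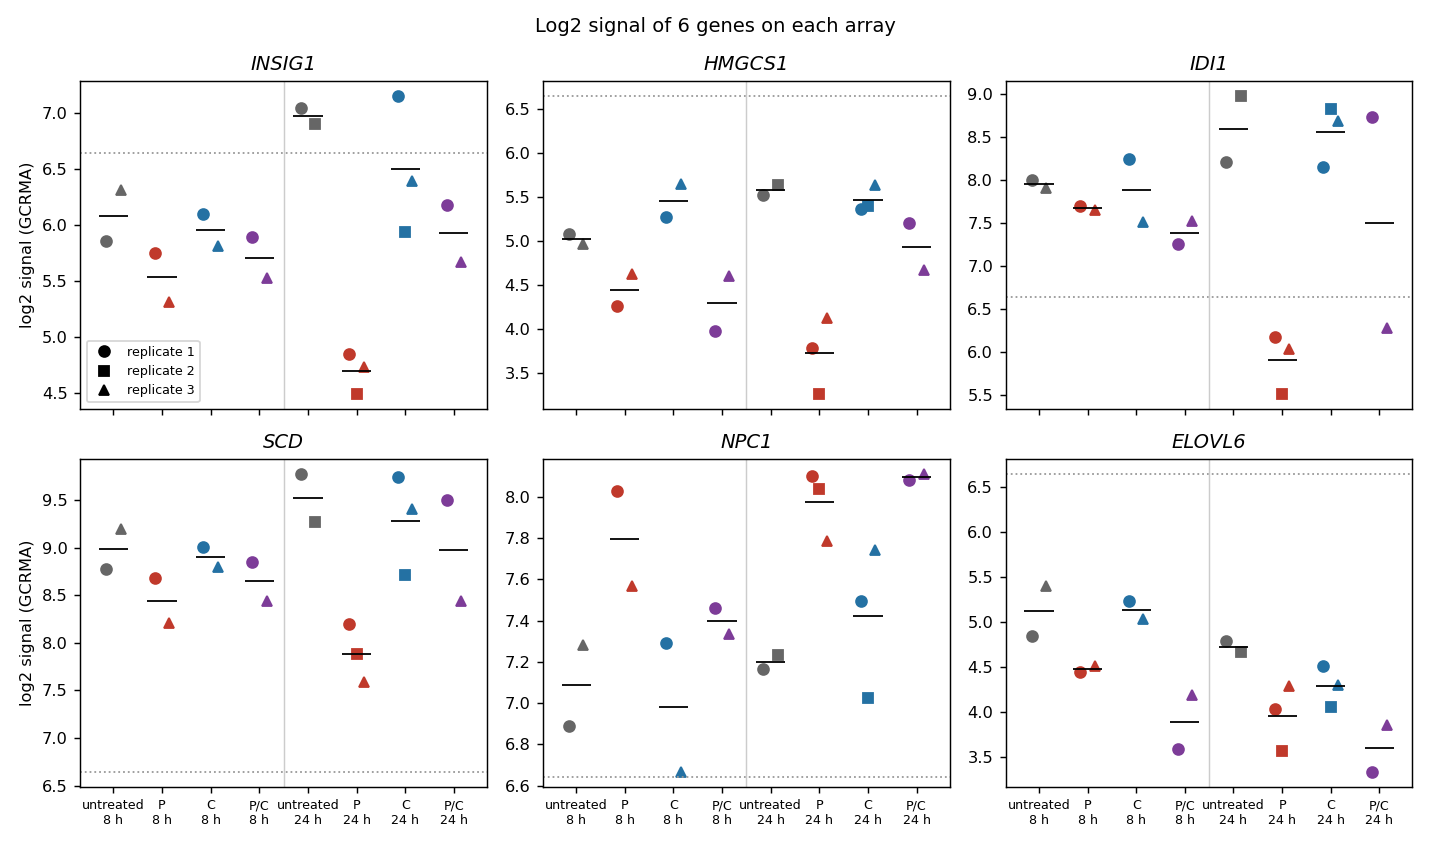
Log2 signal (y axis) of INSIG1, HMGCS1, IDI1, SCD, NPC1 and ELOVL6 on each of the 18 arrays, by group and time (x axis). Symbols give the replicate number, black lines the group means, and the dotted line a signal of 100. INSIG1 lies between 4.49 and 4.85 on the P arrays at 24 h and at 5.31 or higher on all others, and the P/C arrays of IDI1 at 24 h lie at 6.28 and 8.74.

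With both drugs for 24 h no gene of the list was called in either fit, where 6.87% of probe sets were called in the filtered and 1.11% in the complete fit. At an unadjusted p below 0.05, 10 of 29 passed in the complete fit, as did 3255 of all 22215 probe sets. The log2 fold change was negative in 23 of 29, with a median of -0.29, and both P/C arrays lay below the untreated ones in 11 of 29 genes, against 20.5% of all probe sets. Of the 19 genes with a mean signal of at least 25, 6 did so. Shares of this kind cover dim probe sets too, and only the share with P at 24 h was also taken over brighter ones. The P/C arrays were unlike each other. IDI1 gave 8.74 on replicate 1 and 6.28 on replicate 3, beside 8.21 and 8.98 in untreated cells, with a change of -1.09 (limma, filtered fit, adjusted p = 0.187). SCD gave 9.50 and 8.44, and EBP 6.80 and 5.78. For each of these genes replicate 1 lay within the untreated range and replicate 3 below it.

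Other genes were lower on both P/C arrays. INSIG1 gave 6.18 and 5.67, with a change of -1.05 (limma, complete fit, adjusted p = 0.125), ACACA gave 5.42 and 4.87, with -1.17 (adjusted p = 0.120), and ELOVL6 gave 3.34 and 3.86, with -1.13 (adjusted p = 0.0568). NPC1 gave 8.08 and 8.11, its change of 0.90 having an adjusted p of 0.0475 in the filtered fit, again under the limit of 1. Its adjusted p without P/C replicate 1 was 0.0855, and in the complete fit with all arrays it was 0.0890. ELOVL6 had -0.87 without P/C replicate 1 (complete limma fit, adjusted p = 0.197), but with all arrays it was the only gene of the list called lower with P/C after quantile normalization (-1.18, adjusted p = 0.0380) and after centring (-1.07, adjusted p = 0.0356). It was also called without either P/C array of 8 h or without P replicate 2 of 24 h (complete limma fit, adjusted p = 0.0444 to 0.0478). MSMO1 gave 7.68 on both arrays, with -0.61. SREBF1 and SCAP had 0.53 and 0.54 and were not called. The other genes had values between -0.93 in ACAT2 and 0.21 in TM7SF2.

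Without P/C replicate 1, IDI1 (-2.32, adjusted p = 0.00212), FDPS (-1.10, adjusted p = 0.0174) and EBP (-1.28, adjusted p = 0.0249) were called lower with P/C in the filtered limma fit, where 11.3% of probe sets were called in either direction. In the complete fit IDI1 and FDPS were called, against 2.44%. Without C replicate 1 as well, 6 genes were called in the complete fit, ACAT2, IDI1, FDPS, EBP, INSIG1 and ACACA, against 3.51%. Without C replicate 1 alone, INSIG1, ACACA and ELOVL6 were called lower with P/C in the complete fit, against 2.01%. With both arrays left out the median over the 29 genes with P/C was -0.60. A group of 1 array is taken in these fits to vary as the other groups do.

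Array by array at 24 h, the 29 genes had median differences from the untreated mean of -0.68, -0.71 and -0.59 on the P arrays and of 0.09, -0.10 and 0.02 on the C arrays. On P/C replicate 1 the median was -0.12, and on P/C replicate 3 it was -0.60. Over the 10 enzymes of cholesterol synthesis with a mean signal of at least 25, the mean differences were -1.07 to -1.20 with P, -0.07 on P/C replicate 1 and -0.82 on P/C replicate 3. The C arrays had -0.06 to 0.14. P/C replicate 1 was thus just below the C arrays in both measures, and far from the other P/C array.

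**Figure D3:**
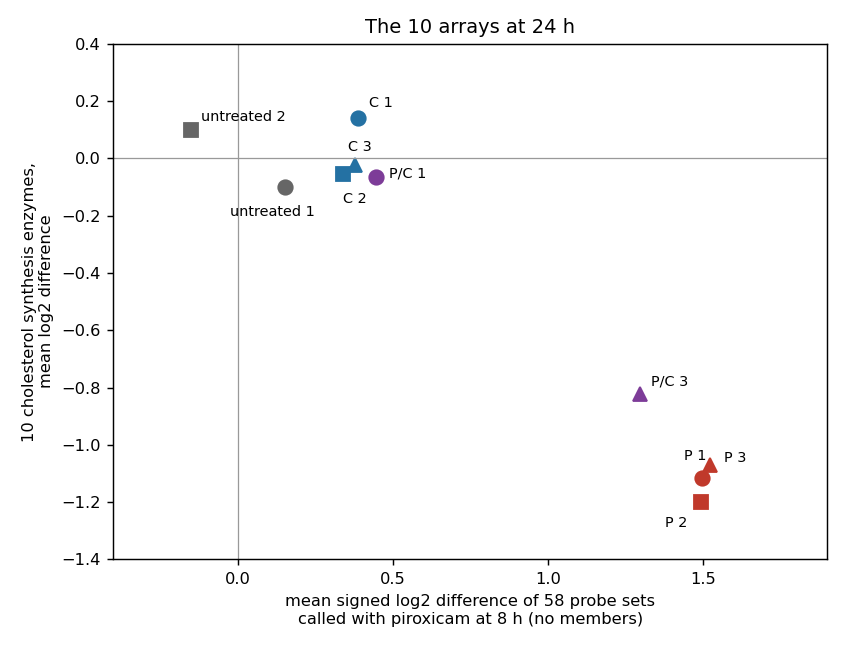
Mean log2 difference from untreated cells of 10 cholesterol synthesis enzymes (y axis) and signed mean log2 difference of 58 probe sets of other genes called with piroxicam at 8 h (x axis), for the 10 arrays at 24 h. The P arrays and P/C replicate 3 lie at 1.30 to 1.52 on the x axis and -0.82 to -1.20 on the y axis, and P/C replicate 1 lies beside the C arrays.

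Set against P alone, P/C had higher values in 24 of 29 genes, with none called (0.164% of probe sets were called in the filtered limma fit). In the complete fit 10 of 29 had an unadjusted p below 0.05, as did 2844 of all 22215 probe sets. The largest differences were 1.60 in IDI1, 1.23 in INSIG1, 1.21 in HMGCS1 and 1.08 in SCD. Without P/C replicate 1 the difference of IDI1 was 0.37, that of INSIG1 0.98 and that of HMGCS1 0.94, still with no call. Without P/C replicate 3 in its place, 6 genes were called higher with P/C in the complete fit, among 2.8% of all probe sets called, and without C replicate 1 HMGCS1 and INSIG1 were, among 0.653%. Set against C alone, 23 of 29 had lower values with P/C, none of them called (0.0981% of probe sets in the filtered limma fit). An unadjusted p below 0.05 was met by 6 of 29 genes and by 1970 of 22215 probe sets in the complete fit. Without P/C replicate 1 the absence of calls against C did not hold. That left 1 array in the P/C group, and the difference of P/C from C was -2.28 in IDI1 and -1.19 in EBP. These comparisons share arrays with those against untreated cells.

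Cisplatin alone for 24 h left the list without a call, as it did nearly all probe sets, with 0.0045% called in the complete limma fit. In that fit 1 of the 29 genes and 1830 of 22215 probe sets had an unadjusted p below 0.05. There were 15 negative and 14 positive changes, with a median of -0.04, and the C arrays lay below the untreated ones in 4 genes, against 11.2% of all probe sets. The values ran from -0.69 in ACACA to 0.60 in DHCR7. HMGCS1 gave 5.36, 5.39 and 5.64 with C, and IDI1 8.15, 8.83 and 8.69, both overlapping the untreated arrays. INSIG1 gave 7.15, 5.94 and 6.40, with replicate 1 the highest. Without C replicate 1, ACACA was called lower in the complete fit, the only call, where 1.19% of probe sets were called.

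Piroxicam with or without cisplatin was also compared with its absence, P and P/C together against untreated and C, in 5 arrays against 5 at 24 h. IDI1 was called lower in the filtered fit (-1.87, limma adjusted p = 0.00151), where 4.48% of probe sets fell. HMGCS1 (-1.19, limma adjusted p = 0.00281) and INSIG1 (-1.42, adjusted p = 0.00235) were added by the complete fit, where 1.06% fell. Without P/C replicate 1 8 genes were called lower in the complete fit, where 3.23% of probe sets were called in either direction. In all, 25 of 29 values were negative, with a median of -0.50. MSMO1 (-0.78, adjusted p = 0.000933) and NPC1 (0.73, adjusted p = 0.00737) passed the p but not the fold limit in the filtered limma fit.

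At 8 h no gene of the list was called with P, P/C or C in limma's filtered or complete fit. In the filtered fit 0.491% of probe sets were called with P, 0.622% with P/C and 0% with C, where 35 of 3057 had an unadjusted p below 0.05. In the complete fit an unadjusted p below 0.05 was met by 2 of the 29 genes with P, 2 with P/C and 1 with C. Of all 22215 probe sets, 1341, 1469 and 435 met it. Negative values were 22 of 29 with P, 21 with P/C and 13 with C. The comparison of all 4 arrays with piroxicam against the 4 without had 23 negative values. The median was -0.13, against 0.01 over all probe sets. Again there was no call, where 1.9% of probe sets were called in the filtered and 0.572% in the complete fit. An unadjusted p below 0.05 was met by 4 of the 29 genes and by 2290 of 22215 probe sets in the complete fit. In 6 of 29 genes all arrays with piroxicam lay below those without, against 4.49% of all probe sets.

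Those 6 were HMGCS1, LSS, NSDHL, EBP, SREBF1 and ELOVL6. HMGCS1 gave 4.26 and 4.62 with P and 3.98 and 4.60 with P/C at 8 h, against 5.08 and 4.96 in untreated cells and 5.27 and 5.64 with C. ELOVL6, which lengthens palmitate, gave 4.44 and 4.51 with P and 3.59 and 4.19 with P/C, against 4.84 and 5.40 in untreated cells and 5.23 and 5.03 with C. Their differences of -0.87 and -0.94 had adjusted p values of 0.0461 and 0.0302 (limma, complete fit) and were under the limit of 1. Both were called without P/C replicate 3 of 8 h (-1.03 and -1.09), and without untreated replicate 1 ELOVL6 was (-1.08). INSIG1 had -0.40 by its main probe set and -1.20 by another (limma adjusted p = 0.0536), while the third, near the array medians, had 0.04, so its probe sets disagreed. NPC1 had 0.57 and was higher on all 4 arrays with piroxicam, from 7.34 to 8.03, than on the 4 without, from 6.67 to 7.29. IDI1, at 7.25 to 7.70 with piroxicam and 7.52 to 8.25 without, overlapped.

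**Figure D4:**
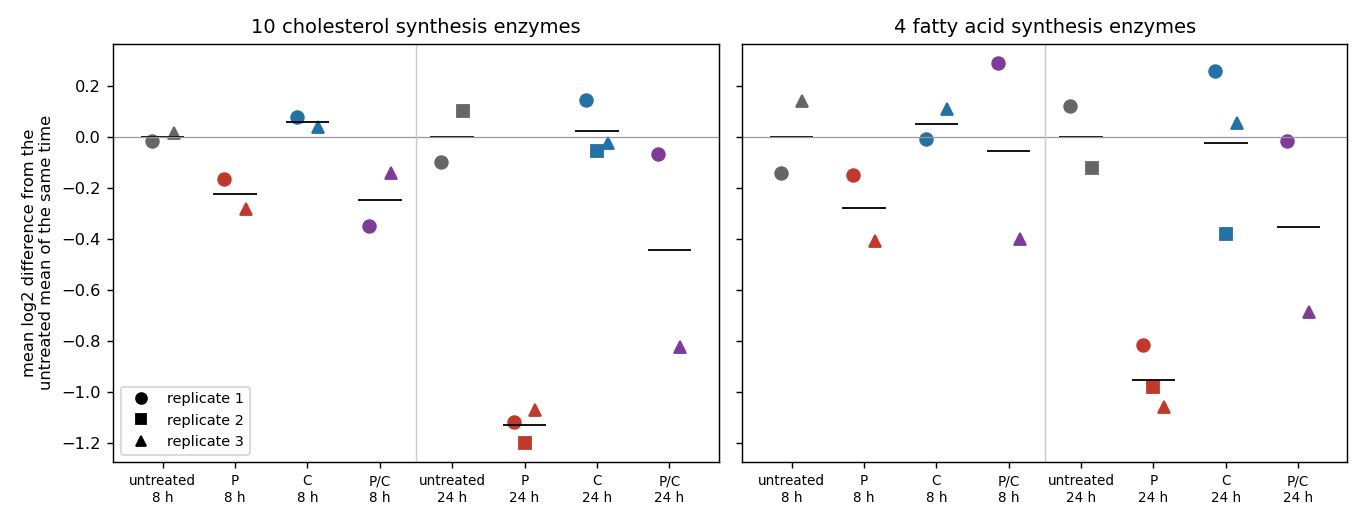
Mean log2 difference from the untreated mean of the same time (y axis) over 10 cholesterol synthesis enzymes and over 4 fatty acid synthesis genes with a mean signal of at least 100, for each array by group (x axis). Symbols give the replicate number and lines the group means. The P arrays at 24 h lie between -1.20 and -1.07 in the cholesterol panel and between -1.06 and -0.82 in the fatty acid panel.

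The change with P was more negative at 24 h than at 8 h in 26 of 29 genes, with a median difference of -0.51. No gene was called for this difference in time, with 0.196% of probe sets called in the filtered limma fit. In the complete fit 7 of 29 genes had an unadjusted p below 0.05, as did 1580 of 22215 probe sets. The difference was -2.41 ± 0.73 in IDI1 (limma, filtered fit, adjusted p = 0.211), -1.73 ± 0.43 in INSIG1 (complete fit, adjusted p = 0.411) and -1.10 ± 0.28 in MSMO1 (filtered fit, adjusted p = 0.136). The untreated cells themselves differed with time. From 8 h to 24 h 21 of 29 genes had higher values, and both arrays at 24 h lay above both at 8 h in 13 of 29, against 14.6% of all probe sets. INSIG1 went from 5.85 and 6.31 to 7.04 and 6.90, a difference of 0.89. No gene was called (limma, 0.0981% of probe sets in the filtered fit). An unadjusted p below 0.05 was met by 3 of 29 genes and by 935 of 22215 probe sets in the complete fit.

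Other genes of lipid metabolism were read from lists. Of 10 other cholesterol and isoprenoid genes, 7 had a probe set and 4 passed the filter. LBR, the lamin B receptor, which also acts as a sterol reductase, fell with P (-1.29, limma adjusted p = 0.000788) and with P/C (-1.01, adjusted p = 0.0180). PDSS1, which makes the side chain of coenzyme Q, gave 5.92 and 6.71 in untreated cells at 24 h, 4.20, 4.77 and 4.70 with P and 4.75 and 4.78 with P/C. It fell with both treatments (-1.76, adjusted p = 0.000487, and -1.55, adjusted p = 0.00906) and, unlike IDI1, was low on P/C replicate 1 too. Without that array the filtered fit still called LBR (-1.03) and PDSS1 (-1.53) with P/C. The call of LBR with P/C was lost after quantile normalization (-0.96) and centring (-0.95) and without P/C replicate 3 (-0.98), and both calls with P/C were lost without untreated replicate 2 (-0.98 in LBR and -1.15 in PDSS1).

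None of 7 measured sterol efflux genes and LXR targets passed the filter or was called, with a median of 0.06 with P, and none of 9 storage and trafficking genes was called with P or P/C. RNF139 of that list, a ubiquitin ligase of the endoplasmic reticulum, gave 4.16 and 4.72 in untreated cells at 24 h, 5.82, 5.59 and 5.82 with P and 4.78 and 6.42 with P/C. It rose with P and P/C together (1.03, limma, complete fit, adjusted p = 0.0341), where 0.626% of probe sets rose. This call was lost in 10 of 18 alternatives, with 0.62 without P/C replicate 3. The changes of filter among these alternatives left its fit as it was and could not lose the call. After centring it was called with P (1.51), and without P/C replicate 1 also with P/C (1.98). Of 9 genes of fatty acid activation and glycerolipids, 3 passed the filter and LPIN1, a phosphatidate phosphatase, fell with P (-1.09, adjusted p = 0.00426), a call lost after quantile normalization (-0.93) and centring (-0.88), without untreated replicate 1 (-0.97) and without P replicate 3 (-0.98). Without both arrays that stood apart it was called with P/C as well (-1.01). Of 14 genes of fatty acid oxidation, 5 passed, and ACADVL, an acyl-CoA dehydrogenase, rose with P (1.14, adjusted p = 0.0253) and with P/C (1.29, adjusted p = 0.0436). The ACADVL probe set was not called in the complete limma fit, with adjusted p values of 0.0771 and 0.115. Its call in the filtered fit was also lost with P/C without P/C replicate 1 (1.18, adjusted p = 0.118), without P/C replicate 3 (1.40, adjusted p = 0.117) and without untreated replicate 2 (0.87), and with P without untreated replicate 2 (0.72), P replicate 1 (1.10) or P replicate 3 (1.15).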

How the data were processed

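The 18 HGU133A arrays of MSTO-211H cells were grouped by drug and time from the submitters' labels. The study describes the replicates as biological. Per the authors' methods, arrays with outlying raw intensities were removed and the deposited log2 signals were made with GCRMA, which corrects background and normalizes between arrays. The GCRMA version was not found in those methods or the labels. GCRMA pulls dim probe sets towards a floor, so changes of dim genes are compressed. Precision is set by how many arrays each group has.

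From these values 8 group means were fitted with limma 3.58.1 in R 4.3.3, on the 3057 probe sets with an interquartile range of at least 0.25 that also reached a signal of 100 on 25% of arrays or more, and on all 22215 without the 68 controls. All 8 groups shared 1 estimate of the spread (10 residual degrees of freedom), and 12 comparisons were adjusted separately by Benjamini-Hochberg. The tests were two-sided. In the platform annotation 19071 probe sets had 1 gene symbol and 1043 had several, which named no gene. Every listed gene with a probe set could be named, by the probe set with the highest mean, and from other lists up to 3 called genes for each comparison. The genes, lists and rules were chosen with earlier results of these data known. The fit was tested on simulated data. Alternatives changed the filter, the scaling, array weights, the arrays fitted, a replicate block, the choice of probe set and each array in turn, and for genes of other lists were added after the data were seen.

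Arrays with the same replicate number deviated together at 8 h, with correlations of 0.203 to 0.66. At 24 h the correlations ran from -0.223 to 0.393, and those between untreated and P arrays were 0.393 and 0.285. Pairing at 24 h was thus left undecided. The numbers were taken to pair the 8 h arrays only, on the data and not on a stated source. The main fits used no pairing at either time.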

Additional observations from a re-analysis of the deposited data

How the results depend on the processing

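Of the 29 genes, the number called in the filtered fit with P at 24 h went from 5 to 2 after quantile normalization and after centring, and to between 2 and 5 when 1 array was left out, with 2 without untreated replicate 2 and 3 without P replicate 1. With P/C it went from 0 to 3 without both arrays that stood apart, and lay between 0 and 3 with 1 array left out, with 3 without P/C replicate 1. P/C against C did not keep its count of 0 without P/C replicate 1, and P/C against P did not keep its own without P/C replicate 3. Either fit left 1 array in the P/C group. The share of all filtered probe sets called also moved between settings. With all arrays it was 14.6% with P, 6.87% with P/C and 6.18% for P and P/C together at 24 h. Without C replicate 1 of 24 h it was 15.1%, 8.8% and 5.63%. The shares for P without untreated replicate 2 and for P/C without P/C replicate 1 are given above. Changes in the counts of this section are therefore not read as particular to these genes. For P and P/C together at 24 h the count of 1 became 3 without the filter and 3 without both arrays, and 1 to 3 with 1 array left out. The difference of P between times, with none called, gave 2 with array weights and 1 with only its own arrays. No single array changed the filtered count of 0 at 8 h, with C at 24 h or between untreated times. In the complete fit, single arrays added ELOVL6 or HMGCS1 with piroxicam at 8 h and ACACA with C at 24 h. The replicate number was also fitted as a block at both times, although the numbers were taken to pair the 8 h arrays only. With it the count with P at 24 h was 4, as FDPS (-0.89) was under the limit. ELOVL6 was then called with P/C (-1.39) in the complete fit, and the other counts kept their value. A block for the 8 h arrays alone, added after the data were seen, gave 0 at 8 h. No value reversed. HMGCS1, INSIG1, IDI1 and SCD kept their calls with P at 24 h under every alternative run, 12 for each. The former pair was read in the complete fit, which 2 of the 12, the changes of filter, left as it was. The latter pair was read in the filtered fit. In the complete fit SCD lost its call without untreated replicate 1 of 24 h, and IDI1 and SCD lost theirs without replicate 2. Of the alternatives of the filtered fit, FDPS lost its call in 6, and MSMO1 and EBP in 4 each. The cause was not tested. With 2 or 3 arrays in each group, a change under the limit cannot be told from none for dim genes such as MVD and PMVK.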
